A study of Mus musculus with 6 samples.

Results

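Integrins are the receptors that tie a cell to its matrix, and focal adhesion proteins are the cytoplasmic proteins that link bound integrins to the actin cytoskeleton. The genes described here were 42 entries of the 23700 in each expression table, chosen by symbol: 17 integrin alpha chains, 8 integrin beta chains, the beta-like gene *Itgbl1*, and 16 focal adhesion genes. Their levels were measured by RNA sequencing in IDG-SW3 cells, a mouse line from long bones of animals with a Dmp1-GFP reporter. It is immortalised with a temperature-sensitive T antigen and passes from osteoblast to osteocyte features as it matures. All samples were taken at day 28 of differentiation with β-glycerophosphate (4 mM) and ascorbic acid (50 µg/ml) on plates coated with type I collagen. They received PBS (Control, 3 libraries) or 50 nM bovine PTH(1-34), the active fragment of parathyroid hormone (PTH, 3 libraries), for 24 hours. The line is a single immortalised culture system and each sample was a well of it. The comparison addresses how a day of PTH altered the expression of adhesion genes in mature cells of the line.

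An integrin is a pair of 1 alpha and 1 beta chain, and the pair sets which ligand is bound. Collagen is bound by the alpha chains of *Itga1*, *Itga2*, *Itga10* and *Itga11*, laminin mainly by those of *Itga3*, *Itga6* and *Itga7*, and proteins with the RGD tripeptide, such as fibronectin, vitronectin and several bone matrix proteins, by those of *Itga5*, *Itga8*, *Itgav* and *Itga2b*. The chain of *Itgb1* pairs with most alpha chains, whereas those of *Itgb3*, *Itgb5*, *Itgb6* and *Itgb8* pair with the alphaV chain. Bone cells use these receptors to hold on to their collagenous matrix, and osteocytes also to sense its strain.

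Levels are in FPKM, sequenced fragments per kilobase of transcript corrected for library size, so genes of different length can be set side by side. The groups were compared with limma on log2(FPKM + 1) over all 11864 entries with a mean of at least 1 FPKM, and a gene was called where the Benjamini-Hochberg adjusted p over those entries was below 0.05. Every log2 change is a PTH minus Control difference on that scale, which understates the change of low genes, and every ± is an SD over 3 libraries. In all, 5967 entries were called higher with PTH and 2783 lower, and the median change of all tested entries was 0.15. With median-of-ratios scaling the calls were 4459 higher and 3741 lower and the median moved by -0.11, and with quantile normalization they were 4593 and 3620 and it moved by -0.10. The size of each authors' bound implies between 13958213 and 19043743 fragments for Control and between 22479950 and 24481480 for PTH, so every PTH library was deeper. Libraries correlated at 0.956 to 0.965 within groups and at 0.880 to 0.891 between them, and none stood apart. The cells carried osteoblast markers (summed FPKM 27356 to 27866 in Control, 5286 to 6175 in PTH) and osteocyte markers (1114 to 1186 in Control, 12.3 to 13.5 in PTH). *Ibsp* and *Bglap* carried most of the osteoblast sum, and *Alpl* was not called (799 and 796 FPKM). *Dmp1* carried most of the osteocyte sum in Control (mean 827 FPKM). The late osteocyte marker *Fgf23* averaged 0.0082 FPKM in Control and was listed at 0 in PTH. The endothelial markers *Cdh5* and *Tie1* and the leukocyte markers *Cd3e*, *Emr1* and *Tyrobp* were listed at 0 in every library. These are bulk samples, in which fewer cells of a type and less RNA per cell cannot be told apart.

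Of the 42 genes, 29 passed the filter, 13 integrin genes and all 16 focal adhesion genes. Limma called 18 of the 29 higher and 8 lower, where 50.3% of all tested entries were called higher and 23.5% lower. The count called in either direction was 26, against a background of 73.8%. The same 26 genes had PTH and Control values that did not overlap, as did 78.2% of all tested entries. Changes of at least 1 in log2 were called in 5 genes upwards (*Itga11*, *Zyx*, *Itgb8*, *Tes* and *Nck2*) and in 3 downwards (*Itga10*, *Itgbl1* and *Itga7*). The background of such changes was 4.43% upwards and 4.84% downwards, 9.26% in all. The integrin genes divided, with 5 higher, 6 lower, 2 not called and a median of 0.01. The focal adhesion genes were mostly higher, with 13 higher, 2 lower, 1 not called and a median of 0.32. Under other scalings of the libraries the integrin genes had 5 higher and 6 to 7 lower calls, and the focal adhesion genes had 10 to 13 higher and 2 lower calls. *Itgb8* passed the filter only through its PTH values. *Itga11*, *Tes* and *Nck2* belong to a motility gene list of the study. It was drawn from genes that responded positively to PTH in these samples and in cultured bone.

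**Figure D1:**
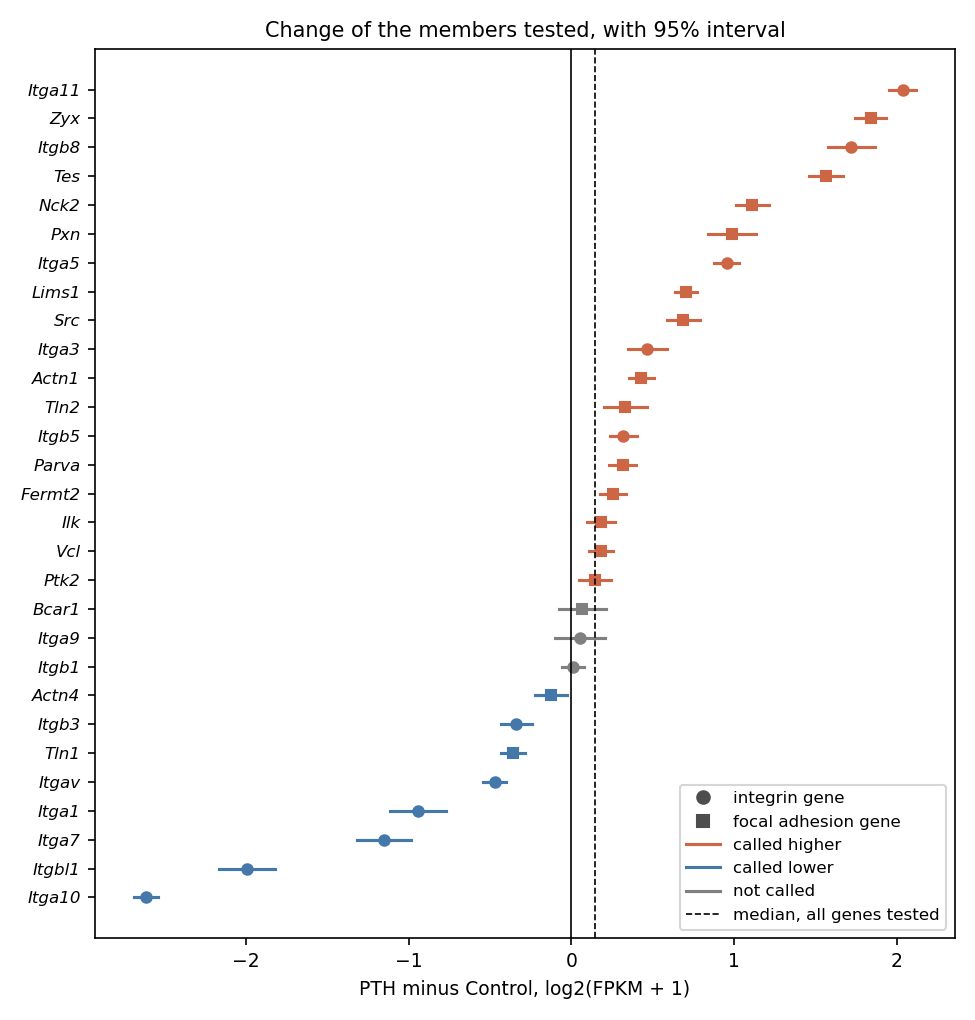
PTH minus Control difference in log2(FPKM + 1) of the 29 genes tested (points) with the 95% interval of the limma fit (bars). Circles are integrin genes and squares focal adhesion genes. The dashed line is the median of all tested entries, 0.15. *Itga11* stands highest at 2.04 and *Itga10* lowest at -2.61.

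The start regions of the gene with the largest fall and of the 3 with the largest rises are shown because they carry the widest changes in each direction. They are the 250 bases before the RefSeq transcription start on GRCm38.p6, read 5′ to 3′ on the strand of the gene. *Itga10* lies at chr3:96645334-96645583 on the plus strand, *Itga11* at chr9:62677605-62677854 on the plus strand, *Zyx* at chr6:42349578-42349827 on the plus strand and *Itgb8* at chr12:119238277-119238526 on the minus strand. Capitals mark matches to 1 of 7 motifs searched on both strands.
Itga10: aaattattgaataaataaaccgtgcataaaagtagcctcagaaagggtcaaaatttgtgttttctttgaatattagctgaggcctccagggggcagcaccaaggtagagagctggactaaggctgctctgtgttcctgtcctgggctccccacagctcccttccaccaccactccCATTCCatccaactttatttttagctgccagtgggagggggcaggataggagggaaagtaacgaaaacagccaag
Itga11: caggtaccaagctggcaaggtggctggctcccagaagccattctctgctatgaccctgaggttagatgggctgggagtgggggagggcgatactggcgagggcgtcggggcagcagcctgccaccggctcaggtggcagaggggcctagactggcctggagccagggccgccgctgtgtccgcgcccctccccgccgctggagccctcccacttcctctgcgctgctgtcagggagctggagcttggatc
Zyx: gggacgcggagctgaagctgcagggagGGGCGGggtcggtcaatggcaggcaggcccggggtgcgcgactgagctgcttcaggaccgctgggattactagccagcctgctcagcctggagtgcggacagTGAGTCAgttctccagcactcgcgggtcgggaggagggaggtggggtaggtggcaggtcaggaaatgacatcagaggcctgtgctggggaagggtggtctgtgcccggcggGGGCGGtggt
Itgb8: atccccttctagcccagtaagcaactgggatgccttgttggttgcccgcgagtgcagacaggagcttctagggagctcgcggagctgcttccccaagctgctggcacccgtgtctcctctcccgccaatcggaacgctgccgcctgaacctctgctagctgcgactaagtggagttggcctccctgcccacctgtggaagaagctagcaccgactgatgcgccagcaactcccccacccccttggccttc

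The motifs were the cAMP response element TGACGTCA, its half-site TGACG, which lies within it, the AP-1 site TGANTCA, the TEAD site GGAATG, the SP1 site GGGCGG, the RUNX site TGTGGT and the CArG box of SRF. They occur in 1.55%, 17.8%, 6.75%, 12.6%, 32.7%, 14% and 1.47% of all 32851 promoters of that length. The *Zyx* region held TGAGTCA at positions -121 to -115 and GGGCGG at -223 to -218 and at -10 to -5, counted from the start. That of *Itga10* held a TEAD match on the other strand, CATTCC, at -75 to -70. Those of *Itga11* and *Itgb8* held no match. RefSeq promoters were matched for 31 of the 42 genes, 37 promoters in all. Of these 0 held the full cAMP element, 8 the half-site, 3 the AP-1 site, 4 the TEAD site, 20 the SP1 site, 4 the RUNX site and 3 the CArG box. A match describes letters in this window and is not a bound site.

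The widest shift among the integrins was in the collagen-binding alpha chains, where *Itga11* rose while *Itga10* and *Itga1* fell. *Itga11*, whose product is a receptor for fibrillar collagens on fibroblasts and other mesenchymal cells, was at 36.1, 36.4 and 36.1 FPKM in Control replicates 1, 2 and 3 and at 153, 156 and 146 FPKM in PTH replicates 1, 2 and 3, the order used for all genes below. The 3 Control libraries were nearly equal, and the lowest PTH library stood far above the highest of them. The group means were 36.2 ± 0.188 and 151.7 ± 5.32 FPKM, a 4.19-fold ratio, with a log2 change of 2.04 (SE 0.034, limma adjusted p = 4.43e-08). The gene spans chr9:62525662-62631786 on mm9, the build of the files.

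*Itga10*, a collagen receptor chain best known from cartilage, moved the other way. Its FPKM was 33.8, 33.3 and 34.4 in Control and 4.66, 4.60 and 4.80 in PTH (chr3:96449507-96468442, mm9). The ratio of the Control to the PTH mean was 7.21, with a log2 change of -2.61 (SE 0.030, limma adjusted p = 1.32e-08), the largest change in size among the 29 genes. *Itga1*, which binds collagens including those of basement membranes, had 9.39, 9.15 and 8.71 FPKM in Control and 4.09, 4.81 and 3.84 FPKM in PTH. All 3 PTH libraries were below all 3 Control libraries, and the change was -0.95 (SE 0.072, limma adjusted p = 3.47e-05; chr13:115748289-115892172, mm9). The *Itga1* span overlaps that of *Pelo*, which went from 18.0 to 14.5 FPKM, and the libraries do not mark strand. *Itga2*, the collagen receptor chain of platelets and epithelia, was below the filter, with 0.844, 0.582 and 0.763 FPKM in Control and 0.0776, 0.0835 and 0.0475 FPKM in PTH. These values rest on about 205 implied fragments in Control and 25 in PTH. The Control level was 10.7 times the PTH level by implied fragments, with a 95% exact binomial interval of 7.08 to 17 that covers counting error only.

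The Control cells therefore held *Itga10* and *Itga11* at nearly the same level, and the PTH cells held mostly *Itga11*. The ratio of *Itga11* to *Itga10* was 1.07, 1.09 and 1.05 in Control replicates 1 to 3, and 32.8, 34.0 and 30.4 in PTH replicates 1 to 3. As a share of the summed FPKM of the 4 collagen-binding chains, *Itga11* was 45.3% ± 0.427 in Control and 94.4% ± 0.125 in PTH, and *Itga10* was 42.4% ± 0.585 and 2.92% ± 0.171. The *Itga1* share was 11.4% and 2.64%. The sum itself was 79.8 ± 0.341 FPKM in Control and 160.7 ± 5.69 FPKM in PTH, so the class as a whole was higher although 2 of its 3 tested chains fell. These sums and shares are descriptions, with no test.

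**Figure D2:**
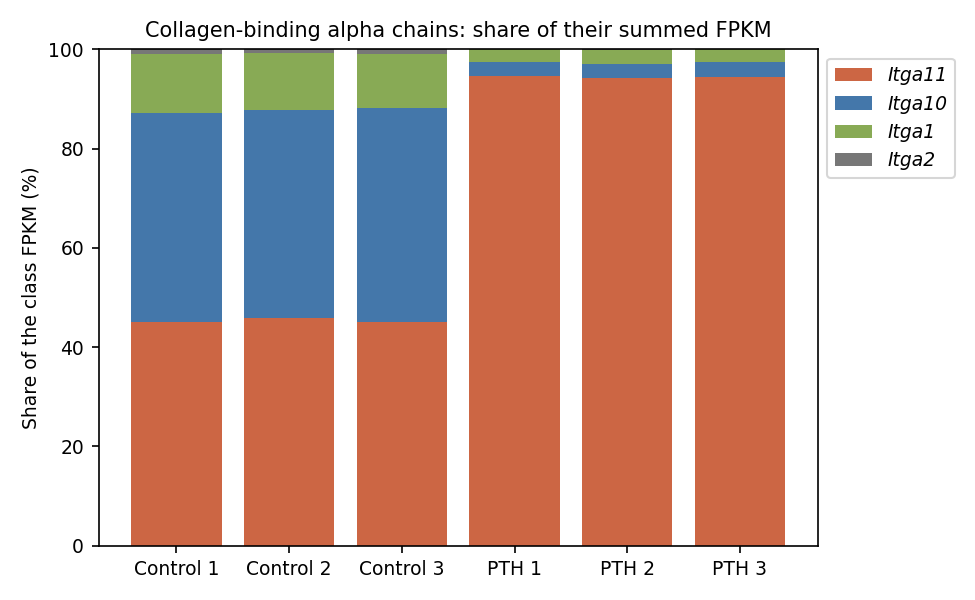
Share of the summed FPKM of *Itga1*, *Itga2*, *Itga10* and *Itga11* (%) in each of the 6 libraries, as stacked bars from 0 to 100. *Itga11* takes 45.1% to 45.8% in Control and 94.3% to 94.5% in PTH.

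Laminin receptor chains were low in these cells, and their most abundant member fell. *Itga7*, a laminin receptor chain known from muscle, was at 6.34, 6.63 and 6.29 FPKM in Control and at 2.25, 2.11 and 2.68 FPKM in PTH, without overlap. Its change was -1.15 (SE 0.069, limma adjusted p = 1.11e-05). *Itga3*, whose product binds laminins of epithelial basement membranes, was higher, with 1.21, 1.16 and 1.24 FPKM in Control and 1.99, 2.12 and 2.03 FPKM in PTH. All 3 PTH values lay above the Control values, and the change was 0.47 (limma adjusted p = 1.84e-04). *Itga6* and *Itgb4*, which pair in the hemidesmosomes of epithelia, were below the filter. *Itga6* had 1.20, 1.08 and 1.12 FPKM in Control and 0.346, 0.385 and 0.326 FPKM in PTH, about 313 and 127 implied fragments. The Control level was 3.23 times the PTH level by those fragments (95% exact binomial interval 2.62 to 4.00). *Itgb4* ranged from 0.630 to 0.671 FPKM in Control and from 0.438 to 0.620 FPKM in PTH. Its groups did not overlap, but by 208 and 257 implied fragments the Control level was 1.06 times the PTH level (95% exact binomial interval 0.879 to 1.28), against 1.28 times by mean FPKM. Together the 4 laminin-binding chains summed to 9.40 ± 0.113 FPKM in Control and 5.25 ± 0.212 FPKM in PTH. Of the 6 epithelial markers, which summed to 5.41 to 6.19 FPKM in Control and 0.199 to 0.298 FPKM in PTH, *Epcam* carried nearly all (5.62 ± 0.399 and 0.137 ± 0.0591 FPKM). *Krt5* and *Krt18* were listed at 0 in every library, *Krt8* and *Cldn4* averaged under 0.01 FPKM, and *Krt14* averaged 0.0427 FPKM in Control and 0.113 FPKM in PTH. The part of such cells in these values was not tested.

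In the RGD-binding class the fibronectin receptor chain rose and the alphaV chain fell, so that their order changed. *Itga5*, the alpha chain of the main fibronectin receptor, was at 15.7, 14.9 and 15.1 FPKM in Control and 30.5, 31.2 and 29.9 FPKM in PTH. The means differed 2.00-fold, with no overlap and a change of 0.96 (SE 0.032, limma adjusted p = 8.38e-07; chr15:103174718-103197179, mm9). *Itgav*, the alpha chain shared by the vitronectin-type receptors, was at 35.4, 34.9 and 34.9 FPKM in Control and 25.2, 25.5 and 24.3 FPKM in PTH. Each PTH value was below each Control value, with a change of -0.47 (SE 0.029, limma adjusted p = 1.36e-05). The ratio of *Itga5* to *Itgav* was 0.435 ± 0.00799 in Control and 1.22 ± 0.00948 in PTH, so *Itgav* exceeded *Itga5* in every Control library and *Itga5* exceeded *Itgav* in every PTH library.

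The other RGD-binding chains were scarce. *Itga8*, a receptor chain for nephronectin and fibronectin, had 0.911, 0.838 and 0.727 FPKM in Control and 0.329, 0.402 and 0.257 FPKM in PTH. Its Control level was 2.58 times its PTH level by implied fragments (317 and 161, 95% exact binomial interval 2.13 to 3.14). *Itga2b*, the platelet fibrinogen receptor chain, had 0.304, 0.466 and 0.461 FPKM in Control and 1.10, 1.32 and 1.18 FPKM in PTH. Its PTH level was 2.97 times the Control level by 350 and 90 implied fragments (95% exact binomial interval 2.35 to 3.78). The 7 megakaryocyte and platelet markers summed to 1.91 to 2.51 FPKM in Control and 2.99 to 3.48 FPKM in PTH, with *Gp6* listed at 0 in every library. Among them *Ppbp* averaged 0.0545 FPKM in Control and 1.39 FPKM in PTH, and *Pf4* 0.106 and 0.610 FPKM. The part of those cells in the *Itga2b* values was not tested.

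The alpha4 and alpha9 chains can bind VCAM1, tenascin or osteopontin, ligands that are not theirs alone. *Itga9* was not called and *Itga4* was nearly absent. *Itga9* was at 4.95, 4.49 and 4.92 FPKM in Control and 4.78, 5.50 and 4.75 FPKM in PTH. The groups overlapped, and the difference of 0.05 (95% interval -0.10 to 0.20, limma adjusted p = 0.470) was not called and turned its sign under all 4 other scalings. *Itga4* stayed at or under 0.164 FPKM in every library, with 82 implied fragments in Control and 39 in PTH, and its Control level was 2.76 times the PTH level by those fragments (95% exact binomial interval 1.86 to 4.14).

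Chains that mark leukocytes were at or near 0. *Itgax* was listed at 0 in all 6 libraries, *Itgam* was at 0.0178 FPKM at most, and *Itgb2*, the beta chain of both, lay between 0.0444 and 0.109 FPKM in Control and between 0.0781 and 0.0882 FPKM in PTH. *Itgae* ranged from 0.0456 to 0.109 FPKM in Control and from 0.111 to 0.124 FPKM in PTH, on 14 and 29 implied fragments. *Itgb7*, its partner, ranged from 0.0167 to 0.0420 FPKM in Control and from 0.0949 to 0.168 FPKM in PTH. That is 4.88 times higher in PTH on 5 and 32 implied fragments (95% exact binomial interval 1.89 to 16.1). *Itgal* ranged from 0.0660 to 0.145 FPKM in Control and from 0.220 to 0.228 FPKM in 2 PTH libraries, and the estimate of the other PTH library carried a FAIL status. The 12 macrophage and leukocyte markers summed to 18.2 to 21.5 FPKM in Control and 14.2 to 14.7 FPKM in PTH, and *Ptprc*, the leukocyte common antigen, averaged 0.00521 FPKM in Control and was listed at 0 in PTH. Most of that sum came from *Lyz2* (mean 11.3 FPKM in Control and 4.36 in PTH) and *Fcer1g* (5.46 and 3.49), both called lower. The other tested markers of the list, *Cd14* (1.36 and 4.01) and *Cd68* (1.02 and 2.20), were called higher.

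**Figure D3:**
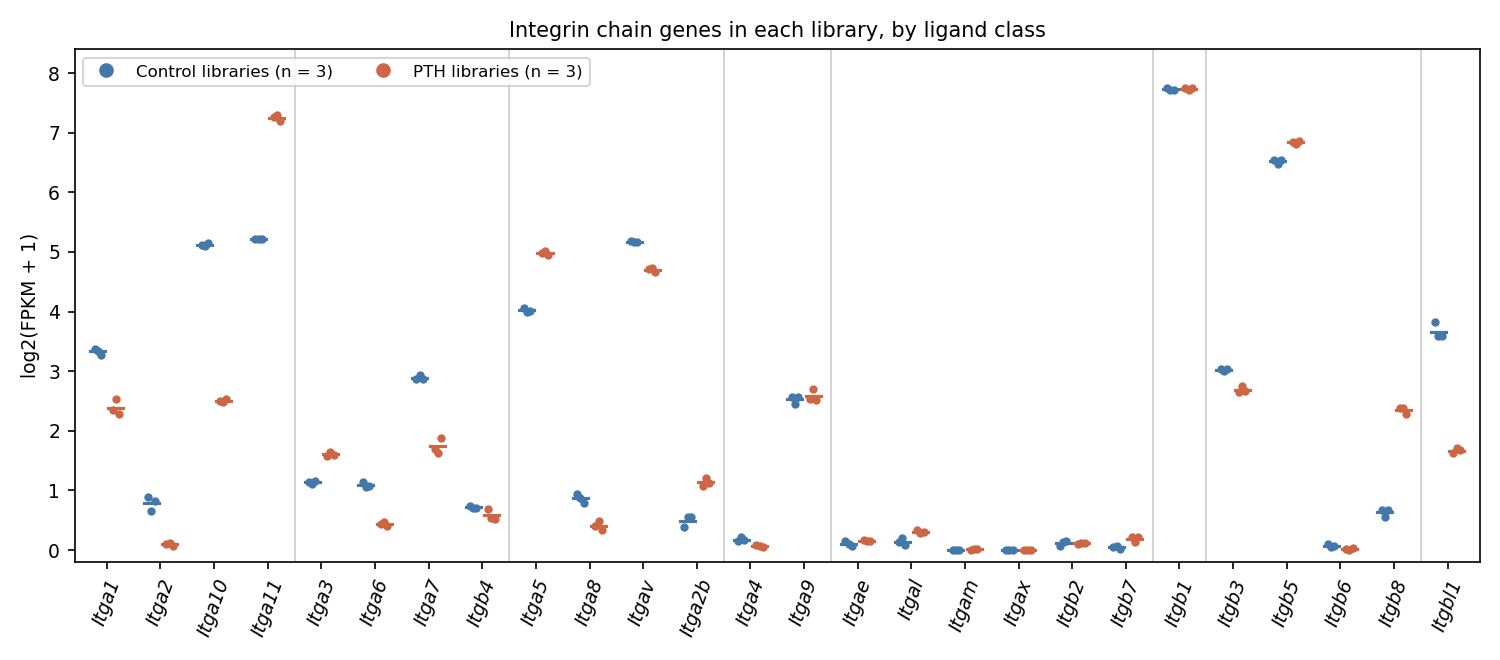
log2(FPKM + 1) of the 26 integrin genes in the 3 Control libraries and the 3 PTH libraries. Points are libraries and short lines are group means, and grey lines separate, from left to right, collagen, laminin, RGD, alpha4 and alpha9, leukocyte, *Itgb1*, alphaV-type beta and *Itgbl1* genes. *Itga10* and *Itga11* are level in Control and far apart in PTH, while the *Itgb1* values of the groups overlap. The point of *Itgal* in PTH replicate 1 has a FAIL status.

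The shared partner of the collagen, laminin and fibronectin receptor chains was not called in either direction. *Itgb1* was the most abundant of all 26 integrin genes in both groups, at 214, 209 and 210.4 FPKM in Control and 213, 210.1 and 215 FPKM in PTH (chr8:131209554-131257479, mm9). The groups overlapped, and the difference was 0.0091 with a 95% interval of -0.06 to 0.08 (limma adjusted p = 0.782). That direction turned under all 4 other scalings, and in 2 of them the gene was called lower: the difference was -0.12 (limma adjusted p = 0.00296) with median-of-ratios scaling and -0.09 (limma adjusted p = 0.0309) with rescaling outside the 10 loci of most fragments. By contrast, the 12 alpha chains that can pair with beta1 summed to 145 ± 1.11 FPKM in Control and 226 ± 7.19 FPKM in PTH, as a description. Of that sum *Itga11* alone held 36.2 FPKM in Control and 151.7 FPKM in PTH. *Itga5* and *Itga3* also rose, while *Itgav*, *Itga10*, *Itga1* and *Itga7* fell. All 17 alpha chains summed to 145.2 ± 1.03 and 227.9 ± 7.24 FPKM, and all 8 beta chains to 311 ± 5.10 and 337 ± 4.28 FPKM.

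Among the beta chains that pair with alphaV, *Itgb8* had the widest change and *Itgb5* the highest level. *Itgb8*, which with alphaV binds and activates latent TGF-beta, was at 0.585, 0.467 and 0.601 FPKM in Control and 4.22, 4.24 and 3.88 FPKM in PTH (chr12:120401276-120476749, mm9). Even its lowest PTH library was several times the highest Control library. The means of 0.551 ± 0.0733 and 4.11 ± 0.201 FPKM differed 7.47-fold, and the change was 1.72 (SE 0.060, limma adjusted p = 9.50e-07), on 111 implied fragments in Control and 1072 in PTH. With a Control mean below 1 FPKM, *Itgb8* was tested only through its PTH values. *Itgb5*, a beta chain of the vitronectin receptors, was at 92.7, 87.7 and 92.4 FPKM in Control and 114, 111 and 116 FPKM in PTH, a change of 0.32 (limma adjusted p = 1.84e-04). *Itgb3*, the beta chain of the osteoclast and platelet vitronectin and fibrinogen receptors, was at 7.20, 7.00 and 7.24 FPKM in Control and 5.27, 5.72 and 5.33 FPKM in PTH, a change of -0.34 (limma adjusted p = 2.88e-04). Neither gene had overlapping groups. *Itgb6*, an epithelial beta chain, was at 0.0727 FPKM or less in all libraries, on 13 implied fragments in Control and 3 in PTH. *Itgb5* held 92.1% ± 0.0351 of the summed FPKM of this class in Control and 92.2% ± 0.419 in PTH. The share of *Itgb8* was 0.557% ± 0.0585 and 3.34% ± 0.206.

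*Itgbl1* encodes a secreted protein that resembles the EGF-like stalk of beta chains and lacks the ligand-binding head and the membrane anchor of an integrin. It was at 13.1, 11 and 11.03 FPKM in Control and 2.07, 2.26 and 2.22 FPKM in PTH (chr14:124059362-124373301, mm9). The Control mean was 5.37 times the PTH mean, without overlap, and the change was -1.99 (SE 0.071, limma adjusted p = 1.02e-06).

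The order of the alpha chains differed between the groups accordingly. In Control it ran *Itga11*, *Itgav*, *Itga10*, *Itga5*, *Itga1*, *Itga7* and *Itga9*, and the library values of neighbours in this run did not overlap, although the first 3 lay between 33.3 and 36.4 FPKM. In PTH it ran *Itga11*, *Itga5* and *Itgav*, and then *Itga9*, *Itga10* and *Itga1*, whose neighbours overlapped. *Itga11* made up 24.9% ± 0.284 of the FPKM of all alpha chains in Control and 66.5% ± 0.319 in PTH. By class, the collagen-binding chains made up 54.96% in Control and 70.5% in PTH, the RGD-binding chains 35.5% and 25.1%, and the laminin-binding alpha chains 6.03% and 2.09%. Among the beta chains *Itgb1* made up 68.0% and 63.2%.

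Of the 13 integrin genes below the filter, 11 could be fitted by limma without a filter. In that fit *Itga2* (-0.69, adjusted p = 2.26e-04), *Itga6* (-0.66, adjusted p = 3.05e-05), *Itga8* (-0.46, adjusted p = 9.92e-04), *Itga4* (-0.11, adjusted p = 0.00618) and *Itgb6* (-0.05, adjusted p = 0.0394) were lower with PTH. *Itga2b* (0.64, adjusted p = 3.85e-04) and *Itgb7* (0.15, adjusted p = 0.00648) were higher. *Itgb4*, *Itgae*, *Itgam* and *Itgb2* were not called, with changes of -0.13, 0.05, 0.0099 and 4.37e-05. *Itgax* and *Itgal* were not fitted. At these levels the pseudocount of 1 holds the differences down. The implied fragments given above are only a rough guide to their depth, and can mislead for genes with several isoforms.

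Inside the cell, integrin tails are joined to actin by a layer of linker proteins, and these genes changed modestly. *Tln1*, talin 1, which binds and activates integrin tails, was at 48.2, 47.5 and 48.8 FPKM in Control and 36.8, 38.5 and 36.6 FPKM in PTH. It fell without overlap, with a change of -0.36 (limma adjusted p = 6.43e-05). *Tln2*, its paralog, was at 7.997, 8.46 and 8.33 FPKM in Control and 10.4, 11.6 and 10.01 FPKM in PTH, and rose by 0.33 (limma adjusted p = 0.00146). *Actn1*, an alpha-actinin that crosslinks actin filaments, rose from 78.4 ± 1.34 to 106 ± 3.12 FPKM (0.43, limma adjusted p = 3.55e-05). Its close relative *Actn4* was at 109, 101.7 and 111 FPKM in Control and 96.7, 100.5 and 97.2 FPKM in PTH. The *Actn4* groups came within 2 FPKM of each other, and the change of -0.12 (limma adjusted p = 0.0279) was no longer called when Control replicate 1 (adjusted p = 0.0774), Control replicate 3 (0.0889), PTH replicate 1 (0.0901) or PTH replicate 3 (0.0807) was left out. *Vcl*, vinculin, which reinforces the bond of talin to actin under load, had 45.6 ± 1.11 FPKM in Control and 51.8 ± 0.951 FPKM in PTH, a change of 0.18 (limma adjusted p = 0.00175). It was not called under 3 of the 4 other scalings (adjusted p = 0.164 with median-of-ratios scaling, 0.255 with quantile normalization and 0.0668 with rescaling outside the 10 loci).

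The kindlin and the ILK, PINCH and parvin complex, which also sits on integrin tails, was higher in all 4 members tested. *Lims1*, the PINCH adaptor of the complex, was at 37.1, 36.9 and 37.8 FPKM in Control and 62.5, 60.5 and 60.8 FPKM in PTH. This was the widest change of the complex, 0.70 (SE 0.028, limma adjusted p = 1.63e-06), without overlap. *Parva*, alpha-parvin, which binds actin, rose from 42.2 ± 1.15 to 52.8 ± 1.51 FPKM (0.32, limma adjusted p = 2.13e-04). *Fermt2*, kindlin-2, an integrin activator, rose from 33.9 ± 1.02 to 40.8 ± 0.736 FPKM (0.26, limma adjusted p = 4.20e-04). *Ilk*, the pseudokinase scaffold of the complex, was at 82.4 ± 1.52 FPKM in Control and 93.8 ± 3.43 FPKM in PTH, a change of 0.18 (limma adjusted p = 0.00348). As with vinculin, *Ilk* was not called with median-of-ratios scaling (adjusted p = 0.160), quantile normalization (0.259) or rescaling outside the 10 loci (0.0525).

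Among the kinases and adaptors that pass on signals from adhesions, *Nck2*, *Pxn* and *Src* rose. *Nck2*, an SH2 and SH3 adaptor that binds PINCH proteins, was at 4.03, 3.80 and 4.21 FPKM in Control and 9.69, 9.77 and 10.1 FPKM in PTH, a change of 1.11 (SE 0.042, limma adjusted p = 1.31e-06). *Pxn*, paxillin, a scaffold of adhesion signalling, was at 5.19, 4.43 and 4.65 FPKM in Control and 11.04, 10.3 and 9.91 FPKM in PTH, a change of 0.99 (SE 0.062, limma adjusted p = 1.40e-05). *Src*, the tyrosine kinase that acts with focal adhesion kinase, was at 11.5, 11.3 and 12.5 FPKM in Control and 19.3, 19.5 and 19.9 FPKM in PTH, a change of 0.69 (SE 0.042, limma adjusted p = 1.24e-05). The PTH values of each of the 3 genes lay above all its Control values.

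Focal adhesion kinase and its substrate moved less. *Ptk2*, focal adhesion kinase, was at 16.7, 15.2 and 16.5 FPKM in Control and 18.1, 17.9 and 17.9 FPKM in PTH, a change of 0.15 (limma adjusted p = 0.0150) that equalled the median of all tested entries. The sign of that difference turned with quantile normalization (-0.0011, limma adjusted p = 0.977), and it was not called with median-of-ratios scaling (adjusted p = 0.559), with rescaling outside the 10 loci (0.153) or without PTH replicate 1 (0.0503). *Bcar1*, the p130Cas adaptor and a substrate of SRC and focal adhesion kinase, was at 16.9, 16.1 and 19.0 FPKM in Control and 18.4, 18.3 and 17.8 FPKM in PTH. The groups overlapped and the difference of 0.07 (95% interval -0.08 to 0.21, limma adjusted p = 0.345) was not called, and it turned its sign under 3 of the 4 other scalings. Without Control replicate 3 it was 0.13 (limma adjusted p = 0.0268).

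*Zyx* and *Tes*, which encode LIM domain proteins of the actin end of adhesions, rose most among the 16 focal adhesion genes. *Zyx*, zyxin, which gathers at adhesions and stress fibres under tension, was at 27.3, 25.6 and 27.5 FPKM in Control and 98.8, 101.0 and 95.5 FPKM in PTH (chr6:42299827-42308394, mm9). The groups were far apart, with means of 26.8 ± 1.04 and 98.5 ± 2.80 FPKM, a 3.68-fold ratio and a change of 1.84 (SE 0.039, limma adjusted p = 1.20e-07). *Tes*, testin, a zyxin-binding protein, was at 5.49, 5.82 and 5.45 FPKM in Control and 18.5, 17.7 and 19.4 FPKM in PTH. It differed 3.31-fold, without overlap, with a change of 1.57 (SE 0.044, limma adjusted p = 3.56e-07). The ratio of *Zyx* to *Vcl* was 0.588 ± 0.0274 in Control and 1.90 ± 0.0732 in PTH, so zyxin mRNA was below that of vinculin in every Control library and above it in every PTH library.

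**Figure D4:**
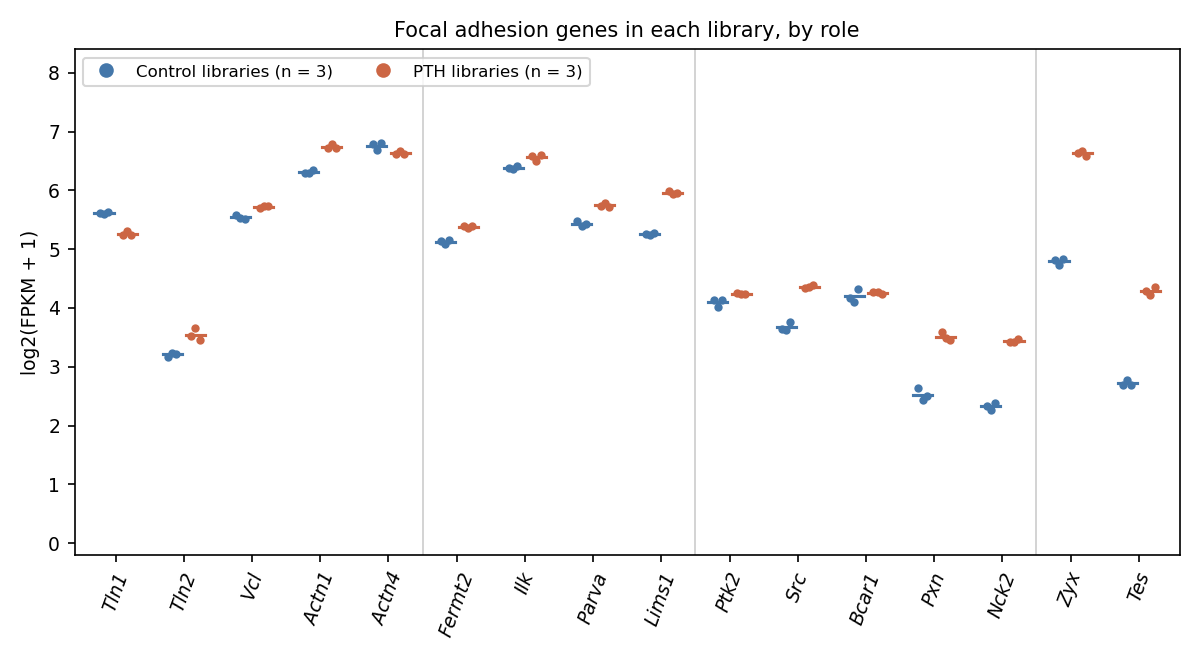
log2(FPKM + 1) of the 16 focal adhesion genes in the 3 Control and the 3 PTH libraries. Points are libraries and short lines are group means, and grey lines separate actin linkers, the kindlin and ILK complex, kinases and adaptors, and zyxin and testin. *Zyx* and *Tes* show the widest gaps and *Bcar1* overlaps.

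The spans of several tested genes overlap those of other entries, and reads from the shared bases cannot be told apart without strand: *Actn4* and *Capn12*, *Ilk* with *Rrp8* and *Taf10*, *Itga7* and *Mettl7b*, and *Tln2* and *Mir190*. Below the filter this held for *Itga4*, *Itga8*, *Itgae* and *Itgb4*. From Control to PTH, *Rrp8* went from 10.2 to 16.5 FPKM, *Taf10* from 53.2 to 75.5 FPKM and *Capn12* from 2.91 to 2.70 FPKM. *Mettl7b* averaged 0.0297 and 0.0973 FPKM, and *Mir190* was at 0 in both groups. The span of *Itgae* overlaps *Gsg2*, which went from 1.86 to 3.22 FPKM.

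The rest of the adhesome, 53 further genes of focal adhesions, held genes called in both directions. Of the 46 tested, 31 were called higher, 8 lower and 7 neither, beside 50.3% and 23.5% of all tested entries, with a median of 0.24, beside 0.15 for all tested entries, and under other scalings 21 to 27 were higher and 10 to 14 lower. *Parvb*, beta-parvin, the relative of alpha-parvin, rose from 5.44 ± 0.654 to 32.6 ± 0.330 FPKM (2.39, limma adjusted p = 4.55e-07). *Csrp1*, a LIM protein that binds zyxin and alpha-actinin, rose from 47.5 ± 2.88 to 188.6 ± 4.64 FPKM (1.97, limma adjusted p = 2.01e-07). *Arhgef6*, a Rac exchange factor that binds parvins, fell from 31.2 ± 0.970 to 6.11 ± 0.103 FPKM (-2.18, limma adjusted p = 3.65e-08). *Sorbs2*, an adaptor of the vinexin family, fell from 16.9 ± 0.802 to 4.75 ± 0.248 FPKM (-1.64, limma adjusted p = 4.91e-07).

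Ligand genes of the integrin classes were read from the same fit, and their counts stand beside the 50.3% of all tested entries called higher and the 23.5% called lower. Of 12 collagen chain genes, 11 were tested, and 6 were higher and 5 lower with a median of 0.37. *Col1a1* and *Col1a2* had no Control estimate and are outside every count. *Col3a1*, a fibrillar collagen, rose from 762.6 ± 61.2 to 2003 ± 212 FPKM (1.39), and *Col6a1*, a pericellular microfibril collagen, from 289.8 ± 16.4 to 558.6 ± 19.7 FPKM (0.95). *Col13a1*, a transmembrane collagen, fell from 50.1 ± 2.29 to 0.644 ± 0.0829 FPKM (-4.96, limma adjusted p = 1.07e-08), and *Col2a1*, the cartilage collagen, from 20.3 ± 1.79 to 2.21 ± 0.190 FPKM (-2.72). All 4 were called. With a PTH mean below 1 FPKM, *Col13a1* was tested only through its Control values.

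Of 8 laminin-type ligand genes tested, 1 was called higher, 5 lower and 2 neither, with a median of -0.34. *Lamb2* (45.8 ± 1.30 to 23.2 ± 0.440 FPKM), the proteoglycan *Agrn* (9.87 ± 0.495 to 5.28 ± 0.167 FPKM) and the laminin-binding *Nid2* (18.5 ± 0.738 to 12.1 ± 1.01 FPKM) fell. Leaving out Control replicate 1 made the count 2 higher. *Lamb1* rose from 28.8 ± 1.24 to 83.7 ± 4.85 FPKM (1.51, limma adjusted p = 8.91e-07). Of 21 tested ligands of the RGD-binding and alpha4 and alpha9 receptors, 8 were higher, 10 lower and 3 not called, with a median of 0.0019. *Tgfbi*, a matrix adaptor protein, rose from 1.05 ± 0.0775 to 63.9 ± 0.858 FPKM (4.99, limma adjusted p = 5.85e-09). The RGD-bearing bone matrix genes *Dmp1* (-7.48), *Mepe* (-6.33) and *Ibsp* (-3.75) fell. Osteopontin, *Spp1*, another of that kind, was named after its values were seen: it averaged 5473 ± 172 FPKM in Control and 5741 ± 289.8 FPKM in PTH and was not called (0.07, limma adjusted p = 0.340). Of 3 tested leukocyte integrin ligands, *Jam3*, a junctional adhesion molecule, was called higher (18.2 ± 1.14 to 20.8 ± 1.11 FPKM, limma adjusted p = 0.0206) and the other two were not called. *Jam3* was not called under any of the 4 other scalings, nor without Control replicate 2, Control replicate 3, PTH replicate 2 or PTH replicate 3.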

How the data were processed

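RNA from 3 Control and 3 PTH wells was sequenced from polyadenylated libraries that do not mark strand, on an Illumina HiSeq instrument. The labels do not say that wells were separate cultures, and the p-values therefore reflect the spread among wells alone, possibly a technical one. The authors deposited gene-level FPKM per library with bounds and a status for 23700 entries. Their processing notes name CASAVA 1.8, TopHat, Bowtie2, SAMtools, Cuffdiff and mm9, and for the last 4 tools no version is given in the sources used here. A deposited Cuffdiff table of their own fold changes and p-values was not used. Coordinates are printed 1-based.

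FPKM values were tested with limma 3.58.1 in R 4.3.3 (lmFit, eBayes with trend) on log2(FPKM + 1), with a mean of at least 1 FPKM, after leaving out 43 entries with a FAIL or HIDATA status, among them *Col1a1* and *Col1a2*. The script was tested on simulated data. The half-width of the bounds was taken to be 2 standard errors, and implied fragments are FPKM divided by its standard error, squared. They are unreliable for genes with several isoforms, such as *Ptk2* and *Itgb4*. For *Ptk2* they were 1942 in Control and 456 in PTH, a PTH to Control ratio of 0.179, against 1.11 by mean FPKM. Ratios of implied fragments were scaled for library depth, and their exact binomial intervals cover counting error only. Promoters are from RefSeq (GRCm38.p6).

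Every library value is printed for genes called with a change of at least 0.58, for *Itgb1* and for genes contrasted within a class, and up to 4 called genes with the widest change are named of each list of other pathway genes. The genes and lists were chosen with earlier results of these data known. Alternatives covered the pseudocount, the filter, 4 scalings, the variance trend, a replicate block and leaving out each library.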

Additional observations from a re-analysis of the deposited data

How the results depend on the processing

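The counts called over all entries ranged from 6731 (mean of at least 5 FPKM) to 10125 (no filter), against 8750, and from 8069 to 8459 when each library was left out. Called entries were 5967 higher and 2783 lower as deposited, 5141 and 3198 with TPM scaling, 4459 and 3741 with median-of-ratios scaling, 4593 and 3620 with quantile normalization, and 4793 and 3390 with rescaling outside the 10 loci of most fragments. Of the 42 genes, 24 to 26 were called when each library was left out, 17 to 19 of them higher and 7 to 8 lower. With no filter 33 were called, 13 of them lower. Of 460 values of single genes under an alternative, 432 kept direction and call, 14 lost the call and 13 changed sign. Without a change of sign, 1 gained a call (*Bcar1*). The sign changes were in 4 genes, of which only *Ptk2* was called with FPKM as deposited. *Itgb1* became -0.060 with TPM scaling, -0.12 with median-of-ratios scaling, -0.063 with quantile normalization and -0.0875 with rescaling outside the 10 loci. It was called lower with median-of-ratios scaling and with that rescaling. *Itga9* became -0.0044, -0.056, -0.026 and -0.027 under the same 4 scalings and -0.0050 without PTH replicate 2, within a range of -0.0050 to 0.084 when each library was left out. *Bcar1* became -0.058, -0.087 and -0.025 under the last 3 scalings, and *Ptk2* -0.0011 with quantile normalization. The cause was not tested. Those that lost the call were *Vcl*, *Ilk*, *Ptk2* and *Actn4*. Same-numbered libraries did not deviate together (correlations of -0.079, 0.0015 and -0.038), and differently numbered ones ranged from -0.086 to 0.117. No pairing by number was seen, but with 3 libraries a group these values cannot exclude it. With a replicate block 8576 entries and 25 of the 42 genes were called, and *Actn4* (limma adjusted p = 0.0597) and the ligand gene *Jam3* (0.0579) were not called. Depth limits the genes below 1 FPKM, several of which rest on fewer than 100 implied fragments a group.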
